A study of Glycine max with 22 samples.

Results

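HPT1 and BCH3 are genes of soybean (Glycine max) for the plastid's lipid antioxidants and pigments, and their transcripts were followed here in mature leaves of plants that lost their buds and of plants that kept them. HPT1 encodes homogentisate phytyltransferase, which joins homogentisate to a phytyl chain in the committed step of tocopherol (vitamin E) synthesis. BCH3 encodes a beta-carotene hydroxylase, which turns beta-carotene into zeaxanthin on the way to the xanthophylls. Both pathways draw on isoprenoid precursors made in the plastid. In leaves, tocopherols and xanthophylls are known for protecting chloroplast membranes and the photosynthetic apparatus against excess light, and tocopherol content is known to increase as leaves of many plants age.

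The members are all soybean probe sets of the Affymetrix Soybean GeneChip whose only gene symbol is HPT1 or BCH3, 2 of the 6029 soybean genes that probe sets with a single symbol name. There are 7 of them among 37593 soybean probe sets, 3 for HPT1 and 4 for BCH3, called first, second and so on here by falling mean signal over all arrays. All 7 exceeded the background floor on at least 3 arrays, the condition for being tested (32776 probe sets met it). In RefSeq, HPT1 also carries the name HPT and BCH3 the name BCH1, and no other gene of the array carries either symbol. Each array gives every probe set 1 signal in arbitrary linear units, and signals of different probe sets cannot be set against each other. The 2 genes were chosen by their signals, which lay far below those of untreated leaves in HPT1 at D15 and R20 and in BCH3 at R20. Those values are therefore given as a description with no test. The arrays of C0, C30 and R30 took no part in them and are tested below.

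The 22 samples were mature leaves of plants grown in chambers with 16 h days. Untreated plants gave C0 (age 30 days, n = 4), C15 (45 days, n = 3), C20 (50 days, n = 3) and C30 (60 days, n = 3), the number being the day of the time course. Treated plants lost all axillary and terminal buds daily for 15 days from age 30 days on. Their leaves were taken when removal ended (D15, 45 days, n = 3), 5 days into regrowth (R20, 50 days, n = 3) and 15 days into regrowth (R30, 60 days, n = 3). The labels do not give the cultivar or the number of plants per sample, so p-values reflect how far these samples spread, which may be partly technical. In whole leaf RNA, fewer cells of a type and less transcript per cell cannot be told apart.

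All 4 green leaf marker genes found on the array (CAB3, LHCP, RCA11 and RCA14, for light-harvesting and Rubisco activase proteins) lay above the floor on all 22 arrays. Their summed signal moved with the groups: it was 24105 to 36847 in C0, 14517 to 31512 in C15, 4329 to 11142 in C20 and 7681 to 19049 in C30, against 21422 to 29846 in D15, 24467 to 25085 in R20 and 19621 to 25395 in R30. Of 6 seed storage genes 4 were above the floor on no array, and their summed signal was 18.0 to 80.4. The only nodule or root marker found was ENOD40B, above the floor on 16 of the 22 arrays. It had 26.6 to 109.7 in C0, 10.1 to 70.2 in C15, 6.75 to 23.2 in C20 and 8.39 to 15.9 in C30. The treated groups had 33.3 to 44.3 in D15, within the range of C15, 44.9 to 62.0 in R20 and 19.1 to 39.7 in R30. In C15, C20 and C30 it was not above the floor on all arrays. Some arrays stood apart. R20 replicate 3 had an actin 3′ over 5′ ratio of 136, against 2.29 to 8.37 on the other 21 arrays, and a median soybean signal of 38.2, against 57.1 to 81.3. Over the tested probe sets, C15 replicate 1 correlated more with the mean of D15 (r = 0.936) than with the other C15 arrays (r = 0.855). C0 replicate 4 correlated more with C15 (r = 0.925) than with C0 (r = 0.867), and C30 replicate 1 more with C15 (r = 0.896) than with C30. In all, 11 of the 22 arrays had their highest correlation with a group other than their own. Results are given below with and without C0 replicate 4, C15 replicate 1 and R20 replicate 3, a choice made after seeing the data.

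HPT1 signal was high in older untreated leaves and low in every treated sample. On its first probe set the C0 arrays had 627, 477, 526 and 2917. The C15 arrays had 271, 3371 and 3176. Both groups were thus split, with replicate 4 of C0 at the level of older leaves and replicate 1 of C15 below all C0 arrays. The C20 arrays had 4006, 3712 and 2556 and the C30 arrays 3781, 6370 and 4639. Apart from C15 replicate 1, the untreated arrays from C15 to C30 therefore all lay between 2556 and 6370.

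In treated plants the same HPT1 probe set had 112, 107 and 256 at D15. At R20 it had 182, 195 and 177, and at R30 127, 178 and 535. The 9 treated arrays ran from 107 to 535 with a median of 178. Only C15 replicate 1, at 271, fell within that range among the untreated arrays of the same ages. C0 replicates 2 and 3, at 477 and 526, also lay below R30 replicate 3.

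**Figure D1:**
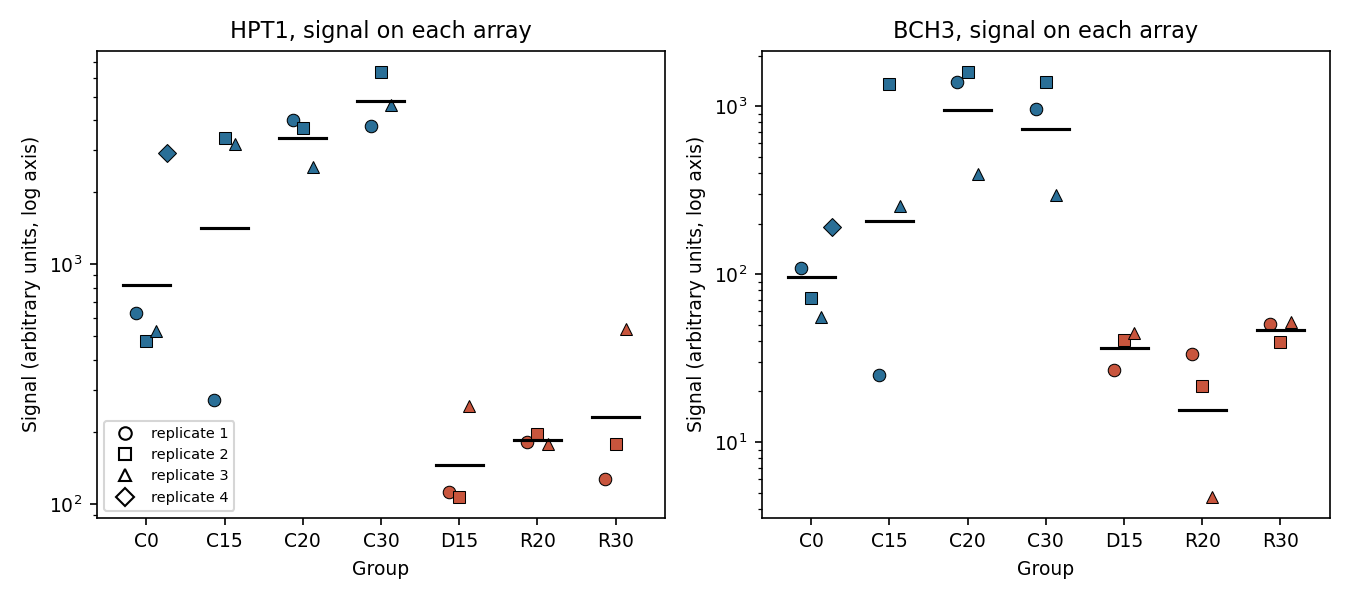
Signal of the first HPT1 probe set (left) and of the first BCH3 probe set (right) on each array, on log axes in arbitrary units. Blue points are untreated groups and red points treated groups, the symbol gives the replicate, and the black bar is the group's mean of log2(signal + 1) turned back to a signal. C20 and C30 arrays lie above all treated arrays in both panels, while C0 replicate 4 and C15 replicate 1 lie away from their groups for HPT1.

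BCH3 was likewise high in older untreated leaves and low in every treated sample. On its first probe set the C0 arrays had 108, 72.1, 55.9 and 191. The C15 arrays had 24.9, 1361 and 256. C15 replicate 1 again lay below all C0 arrays and even below all 3 D15 arrays. The C20 arrays had 1383, 1597 and 392, and the C30 arrays 967, 1385 and 294. Replicate 3 was the lowest array in both of these groups, which was not so for HPT1 in C30.

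The D15 arrays had 26.8, 40.6 and 44.3 for this BCH3 probe set. The R20 arrays had 33.2, 21.6 and 4.73, and the R30 arrays 50.5, 39.2 and 51.5. The lowest of these was on R20 replicate 3, the array with the actin ratio of 136, and it was the only one below the floor, which lay between 11.8 and 22.1 over all arrays. No treated array reached the lowest C0 array, at 55.9.

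The other probe sets repeated the contrast between treated and older untreated leaves. Over the 9 treated arrays the second HPT1 probe set had 58.5 to 211 and the third 0.955 to 65.1, against 1431 to 2863 and 604 to 1526 over the 6 arrays of C20 and C30. The second BCH3 probe set had 6.58 to 45.9 in treated leaves and 409 to 1239 in C20 and C30. The third had 9.11 to 43.2 and 422 to 1042. Only the fourth BCH3 probe set overlapped, with 3.02 to 21.7 in treated leaves and 15.9 to 81.9 in C20 and C30.

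Ordered by mean log2 signal from low to high, HPT1 ran D15, R20, R30, C0, C15, C20, C30. The ranges of every pair of neighbours in this order overlapped. BCH3 on its first probe set ran R20, D15, R30, C0, C15, C30, C20, and only R30 and C0 did not overlap as neighbours. On all 7 probe sets the 3 treated groups were the lowest, C0 the fourth and C15 the fifth, while the order among the treated groups and between C20 and C30 differed between probe sets. The C20 and R20 arrays also differed from all others in a hybridisation control, with a BioC over BioB ratio of 3.00 to 3.53 against 0.994 to 1.54. The part of that difference in the levels of C20 and R20 was not tested.

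The comparison of R30 with C30 asked whether the difference was still there 15 days after buds were allowed to regrow. It was: HPT1 and BCH3 both fell in R30 relative to C30. HPT1 averaged 280.2 ± 222 (SD, n = 3) in R30 and 4930 ± 1319 (SD, n = 3) in C30, with no overlap. The log2 fold change was -4.38 ± 0.78 (SE; limma adjusted p = 0.0044), or 20.9-fold between the geometric means of signal + 1. BCH3 averaged 47.1 ± 6.83 in R30 and 882 ± 550.2 in C30, also with no overlap. Its log2 fold change was -3.94 ± 0.99 (limma adjusted p = 0.0422), a 15.4-fold difference. Between the same arrays the summed green leaf signal ran the other way without overlap. LHCP averaged 1510 ± 746 in C30 and 5678 ± 497 in R30. CAB3 (8903 ± 3405 in C30, 12089 ± 1511 in R30) and RCA14 (3186 ± 1515 and 3648 ± 1438) overlapped between the groups. RCA11 entered the sum and is not given by itself here or below. ENOD40B was higher in R30 without overlap, at 11.8 ± 3.82 in C30, near the floor, and 32.8 ± 11.8 in R30. Their part in the result was not tested.

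Of the 7 probe sets, 6 passed the test in R30 against C30, all lower, where 0.403% of all 32776 tested probe sets were called lower. Probe sets of the same gene are not independent, so these calls are not separate results. For HPT1 all 3 passed, the second at -4.49 ± 0.76 (adjusted p = 0.00281) and the third at -4.80 ± 1.10 (adjusted p = 0.025). The 3 HPT1 estimates lay closer to each other than their standard errors, which is no separate evidence, since they read the same samples. The second BCH3 probe set passed at -4.72 ± 0.95 (adjusted p = 0.0108). On R30 replicate 1 this probe set, at 15.0, and the third of HPT1, at 15.6, lay below the floor. The third BCH3 probe set, whose suffix _x_at marks probes that can also bind related transcripts, was above the floor on no R30 array, with 9.41, 9.28 and 11.2 there. It had 986, 1042 and 422 in C30. Its log2 fold change was -6.12 ± 0.95 (limma adjusted p = 0.00148), fitted on R30 signals below the floor. With the floor of each R30 array in place of its signal, it was at least 39.7-fold lower in R30, a bound that was not tested.

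The fourth BCH3 probe set did not pass (-1.33 ± 0.91, adjusted p = 0.539). It stayed at or below 116 on every array, with 15.9, 66.1 and 81.9 in C30 and 13.9, 16.7 and 21.7 in R30, and its groups overlapped. It lay above the floor on 13 of 22 arrays. In the order of log2 differences over all tested probe sets, 17 lay below the first HPT1 probe set and 30 below the first BCH3 probe set, while 1184 lay below the fourth of BCH3.

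The HPT1 call held when each C30 or R30 array was left out in turn, with log2 fold changes of -4.99 to -3.96 and limma adjusted p-values of 0.00397 to 0.0434. The BCH3 call on the first probe set rested on single arrays: its log2 fold change stayed between -4.60 and -3.49, but the adjusted p rose to 0.165 without R30 replicate 2, 0.159 without R30 replicate 1, 0.163 without C30 replicate 2, 0.0869 without R30 replicate 3 and 0.0731 without C30 replicate 1. Without C30 replicate 3 it was 0.0469. C0 replicate 4, C15 replicate 1 and R20 replicate 3 are not in these groups but enter the shared spread. Without them 6 of the 7 probe sets were also called lower, with limma adjusted p = 1.2e-05 for HPT1 and adjusted p = 0.0013 for BCH3. Of all 32776 tested probe sets 552 were called lower in that fit, against 132 with all arrays.

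**Figure D2:**
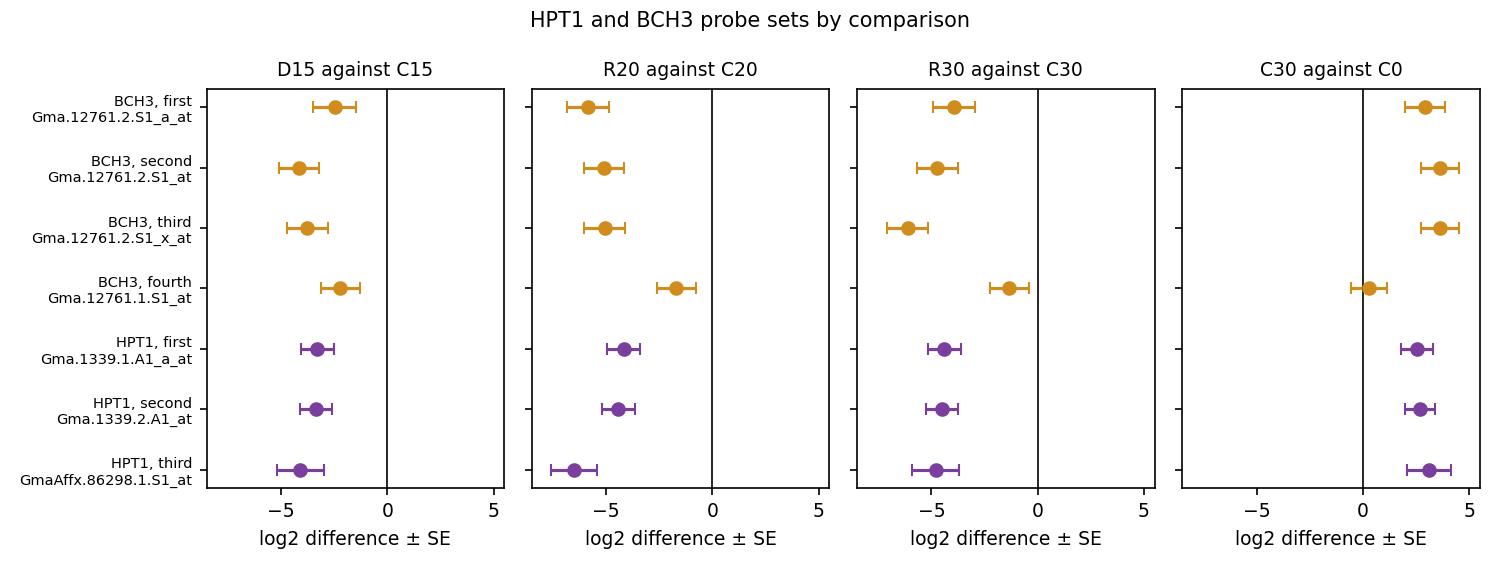
Difference in log2(signal + 1) between groups, with its standard error from limma, for each of the 3 HPT1 (purple) and 4 BCH3 (orange) probe sets in 4 comparisons, labelled with the array's own identifiers. All 7 lie below 0 in the 3 comparisons of treated with untreated leaves, and the fourth BCH3 probe set lies nearest to 0 in each comparison. D15 against C15 and R20 against C20 are shown without a test, since they chose the genes.

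The comparisons that singled out the genes are described with no test. At the end of bud removal HPT1 averaged 158 ± 84.4 in D15 and 2273 ± 1737 in C15, a log2 difference of -3.29 ± 0.78. C15 replicate 1, at 271, lay just above the highest D15 array, at 256. Without C15 replicate 1 the difference was -4.48 ± 0.64. BCH3 averaged 37.2 ± 9.23 in D15 and 547 ± 714 in C15 (-2.48 ± 0.99), and its groups overlapped through C15 replicate 1. Without that array the BCH3 difference was -3.98 ± 0.83.

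After 5 days of regrowth HPT1 averaged 185 ± 9.12 in R20 and 3425 ± 767 in C20, a log2 difference of -4.18 ± 0.78. BCH3 averaged 19.9 ± 14.3 in R20 and 1124 ± 643 in C20 (-5.86 ± 0.99). Neither gene's groups overlapped. LHCP averaged 731 ± 449 in C20 and 7963 ± 1045 in R20 and CAB3 4509 ± 2186 and 13345 ± 1663, with ENOD40B also higher in R20 without overlap. RCA14 overlapped, at 1905 ± 794 in C20 and 3011 ± 272 in R20. The part of these markers was not tested. When R20 replicate 3 was left out together with C0 replicate 4 and C15 replicate 1, the differences were -4.15 ± 0.48 for HPT1 and -5.10 ± 0.71 for BCH3. The probe sets spread widely here. The third of HPT1 had -6.51 ± 1.10, with 0.955 on R20 replicate 3 against 46.5 and 23.6 on the other R20 arrays, and the fourth of BCH3 had -1.70 ± 0.91.

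In untreated plants both genes were higher at C30 than at C0 on part of their probe sets. Of 7 probe sets, which are not independent within a gene, 3 passed the limma test of C30 against C0, all higher. Of all probe sets 1.2% were called higher there. The 3 that passed were the second of HPT1 (2.70 ± 0.71, adjusted p = 0.0356) and, of BCH3, the second (3.63 ± 0.89, adjusted p = 0.0258) and the third (3.62 ± 0.89, adjusted p = 0.0266). The first HPT1 probe set missed the threshold, at 1137 ± 1188 (SD, n = 4) in C0 and 4930 ± 1319 (SD, n = 3) in C30 (2.55 ± 0.73, limma adjusted p = 0.0532). So did the first of BCH3, at 107 ± 60.5 in C0 and 882 ± 550.2 in C30 (2.92 ± 0.93, limma adjusted p = 0.0825). Both had no overlap between the groups. LHCP averaged 8784 ± 3173 in C0 and 1510 ± 746 in C30. CAB3 had 13752.5 ± 1441 and 8903 ± 3405 without overlap, and RCA14 6754 ± 2335 and 3186 ± 1515 with overlap. The part of these markers was not tested.

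The value for HPT1 depended on C0 replicate 4, which had 2917 where the next C0 array had 627. Without it the log2 fold change was 3.15 ± 0.69 for HPT1 (limma adjusted p = 0.00811) and 3.26 ± 0.996 for BCH3 (limma adjusted p = 0.0472). Without it, C15 replicate 1 and R20 replicate 3 together, 6 of the 7 probe sets were called higher. Of all 32776 tested probe sets 2216 were called higher in that fit, against 394 with all arrays. C15 and C20 share arrays with the comparisons that chose the genes and are given as levels alone.

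Both genes' means in R30 also lay below those of C0, which is described without a test. R30 against C0 gave a log2 difference of -1.84 ± 0.73 for HPT1, with overlap through R30 replicate 3 at 535. It gave -1.02 ± 0.93 for BCH3, where the highest R30 array had 51.5 and the lowest C0 array 55.9. R30 replicate 3 was the highest treated array for all 3 HPT1 probe sets.

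The 2 genes ran alike across arrays. Over the 22 arrays log2(signal + 1) of the first HPT1 and BCH3 probe sets had a Pearson r of 0.904 and a Spearman rho of 0.879. These are given as a description, since the arrays fall into low treated and high untreated clusters and include those that chose the genes. The 3 HPT1 probe sets had r of 0.932 to 0.990 among themselves, and the first 3 of BCH3 0.932 to 0.947. The fourth had 0.613 to 0.679 with them. Between an HPT1 probe set and one of the first 3 of BCH3, r was 0.904 to 0.976.

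**Figure D3:**
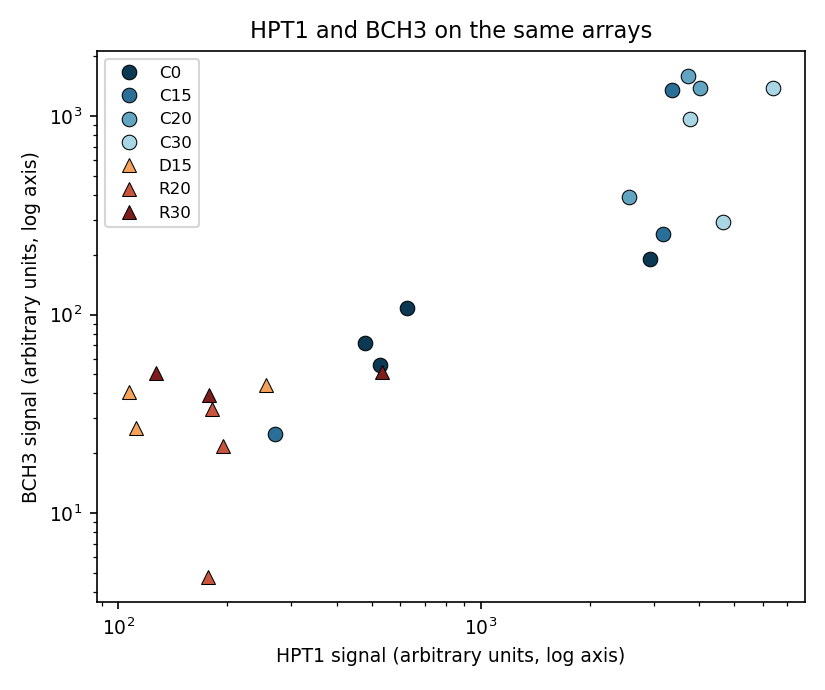
Signal of the first BCH3 probe set against that of the first HPT1 probe set on each of the 22 arrays, both axes logarithmic and in arbitrary units, with circles for untreated and triangles for treated groups. The treated arrays and C15 replicate 1 (HPT1 271, BCH3 24.9) lie at the lower left, 3 of the 4 C0 arrays next to them, and C20, C30 and the other C15 arrays at the upper right together with C0 replicate 4.

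Among 894 other genes with an informative symbol, 1 probe set each, BCH3 ranked 7th by Pearson r with HPT1 over the 22 arrays, and HPT1 ranked 3rd with BCH3. The 22 arrays include those whose values chose both genes, so these ranks are partly set by that choice. The 5 most like HPT1 were BZIP87 (r = 0.92), the NAC transcription factor gene NAC3 (r = 0.92), CCDA (r = 0.91), WRKY41 (r = 0.91) and HO1, a heme oxygenase gene (r = 0.91). NAC3 had a mean signal of 305 in C0, 1587 in C20 and 2324 in C30, against 63.6 in D15, 78.5 in R20 and 154 in R30. The size of the swing differed: BZIP87 moved only between 218 in R20 and 414 in C20. The 5 most like BCH3 were NAC3 (r = 0.91), ICL1, isocitrate lyase of the glyoxylate cycle (r = 0.91), HPT1 (r = 0.90), USP1 (r = 0.90) and WRKY8 (r = 0.88). ICL1 had 1447 in C30 and 46.8 in R30.

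The most opposite patterns included defence and detoxification genes. KTI-2 and KTI-3, genes of Kunitz trypsin inhibitors, had r of -0.97 and -0.97 with HPT1, and the glutathione S-transferase gene GSTU28 had -0.96. KTI-2 had a mean signal of 27.7 in C30 and 4252 in R30. For BCH3 the most opposite were GSTU37 (r = -0.92), GH (r = -0.91) and AG1 (r = -0.91). All of these likenesses share arrays, scaling and the same treated and untreated clusters.

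The rest of the pathway was read from a list of 16 other genes found on the array by symbol, of which 15 were tested, 1 probe set per gene. In R30 against C30 none of the 15 passed limma at an adjusted p under 0.05, where 2.22% of all probe sets were called (1.82% higher, 0.403% lower), and 7 had an unadjusted p under 0.05, all lower. Fitted values were below 0 for 13 of 15, with a median log2 difference of -0.90 against 0.05 over all tested probe sets. In D15 against C15 none passed, where 0.226% of all probe sets were called (0.146% higher, 0.0793% lower), and 2 had an unadjusted p under 0.05, both lower (median -0.60, all probe sets -0.04). In R20 against C20, 1 fell and none rose, where 17.8% of all probe sets were called (6.64% higher, 11.2% lower), and 4 had an unadjusted p under 0.05, all lower (median -0.52, all probe sets -0.27). The balance over all probe sets in that comparison turned with the scaling, from 2175 higher and 3668 lower to 3805 and 1707 under median centring and 2281 and 2400 after quantile normalization. In C30 against C0, 1 rose, where 4.35% of all probe sets were called (1.2% higher, 3.15% lower, median 0.14, all probe sets 0.05). Of all 32776 tested probe sets, an unadjusted limma p under 0.05 was reached by 4736 in R30 against C30. It was reached by 3912 in D15 against C15 and by 11254 in R20 against C20. The 2 of 15 in D15 were thus near the share of all probe sets, and the 4 of 15 in R20 below it.

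On the tocopherol side, HPPD, the dioxygenase gene that makes the homogentisate used by HPT1, had 4086, 1005 and 268 on the C30 arrays and 295, 284 and 429 in R30. The C30 arrays spanned the R30 range, and the difference was -1.64 ± 0.71 (adjusted p = 0.288). In R20 against C20 it was -1.67 ± 0.71 (adjusted p = 0.104), at 194, 227 and 280 against 1184, 833 and 405 with no overlap. VTE2-2, a relative of HPT1 in the same prenyltransferase family, had 1688 ± 176 in R20 and 1056 ± 527 in C20 (0.79 ± 0.40, adjusted p = 0.168) and 1304 ± 381 in R30 and 1706 ± 864 in C30 (-0.31 ± 0.40, adjusted p = 0.765).

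VTE5 is a phytol kinase that starts the recycling of phytol into tocopherol, a role known from Arabidopsis, and 2 soybean genes carry the name. LOC100793696 fell in R20 against C20, from 348, 345 and 198 in C20 to 160, 123 and 86.3 in R20 (-1.26 ± 0.32, limma adjusted p = 0.0136). This call ended under median centring (adjusted p = 0.0769), in a fit of C20 and R20 by themselves (adjusted p = 0.0853) and without C20 replicate 1, C20 replicate 2 or R20 replicate 3 (adjusted p up to 0.0739). The other, LOC100788252, had 565 ± 73.9 in R20 and 408 ± 100 in C20 (0.49 ± 0.49, adjusted p = 0.507).

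On the carotenoid side, BCH5, of the same hydroxylase family as BCH3, had 165, 112 and 41.5 in C30 and 33.1, 35.6 and 37.5 in R30. Its groups did not overlap, but it did not pass (-1.35 ± 0.53, adjusted p = 0.23). Between C0 and C30 its means were 107 ± 66.7 and 106 ± 62.1 (-0.03 ± 0.50, adjusted p = 0.985). The probe set of BCH5 has the suffix _s_at, which marks sets shared by several transcripts, so its signal may hold related ones. PDS1, phytoene desaturase of the early pathway, had 648 ± 162 in C30 and 275 ± 94.7 in R30 with no overlap (-1.26 ± 0.45, adjusted p = 0.182). ZEP, zeaxanthin epoxidase, which uses the product of BCH3, spread too widely to call, with 821, 2899 and 4214 in C30 and 448, 683 and 2224 in R30 (-1.29 ± 0.73, adjusted p = 0.444). DXR2, of the plastid isoprenoid route, had 2333 ± 939 in C30 and 2023 ± 1955 in R30 (-0.61 ± 0.62, adjusted p = 0.695). With age it ran opposite to HPT1 in level, with 7312 ± 1801 in C0 and no overlap with C30, but did not pass (-1.71 ± 0.58, adjusted p = 0.104).

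The stay-green genes SGR1 and SGR2, which act in chlorophyll breakdown, the process that frees phytol, had the lowest fitted values of the list in R30 against C30. SGR1 rose with age in untreated leaves, from 147, 310, 106 and 1122 in C0 to 2661, 2945 and 2003 in C30 (3.20 ± 0.82, limma adjusted p = 0.0316). Leaving out any 1 of C0 replicates 1 to 3 or of the C30 arrays ended that call (limma adjusted p up to 0.12), as did a fit of the C0 and C30 arrays alone (adjusted p = 0.114). In R30 SGR1 had 348, 333 and 689, below every C30 array (-2.54 ± 0.87, adjusted p = 0.161). SGR2 had 627, 712 and 1514 in R30 and 3285, 5195 and 4009 in C30 (-2.22 ± 0.79, adjusted p = 0.178). Like HPT1, SGR1 was highest in C0 on replicate 4 and lowest in C15 on replicate 1, at 113.

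Without C0 replicate 4, C15 replicate 1 and R20 replicate 3, more of the list passed. Calls over all 32776 tested probe sets also went from 74 to 3332 in D15 against C15. They went from 729 to 1944 in R30 against C30, from 1426 to 5093 in C30 against C0 and from 5843 to 4958 in R20 against C20. In R30 against C30, SGR1 (limma adjusted p = 0.000991), SGR2 (adjusted p = 0.00382) and PDS1 (adjusted p = 0.0419) fell. In D15 against C15, SGR1 and SGR2 fell, by 3.51 ± 0.44 and 3.40 ± 0.46 on the log2 scale. In R20 against C20, SGR1, SGR2 and LOC100793696 fell, and in C30 against C0, SGR1 and SGR2 rose. Because arrays far from their groups were left out, the spread in these fits is smaller by construction.

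**Figure D4:**
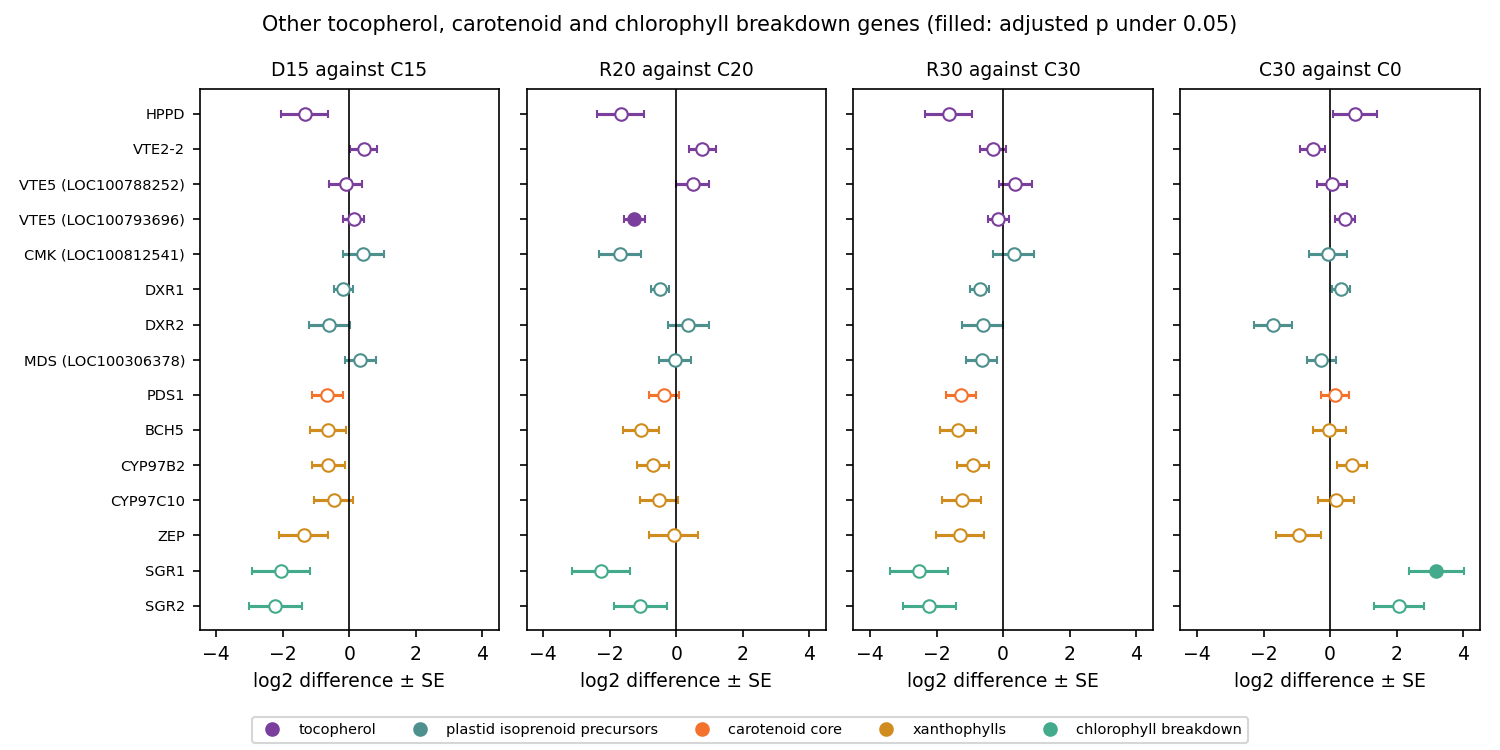
Difference in log2(signal + 1) with its standard error from limma for 15 other genes of tocopherol synthesis, plastid isoprenoid precursors, carotenoid synthesis and chlorophyll breakdown in 4 comparisons. Filled points have an adjusted p under 0.05 over all tested probe sets: LOC100793696 in R20 against C20 and SGR1 in C30 against C0. In R30 against C30, 13 of the 15 points lie below 0.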

How the data were processed

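Each sample's deposited values are intensities, 1 for every probe set, on a linear scale. The authors had scaled them: over the arrays the 2% trimmed mean of the deposited values was 125.009 to 125.015. The sources used here do not give the summarising software. RNA was labelled with biotin, per the labels' protocols. An array's floor was the 95th percentile of its 23350 oomycete and nematode probe sets. Soybean probe sets above it on at least 3 arrays were tested on log2(signal + 1), which understates changes of dim ones, with limma 3.58.1 (R 4.3.3): all 22 arrays, 1 coefficient per group, eBayes with a trend, Benjamini-Hochberg over 32776 probe sets, called under 0.05.

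The probe set with the highest mean stood for a gene. Names came from the platform annotation, updated through RefSeq (Glycine_max_v4.0): 8677 soybean probe sets had 1 symbol, 370 had several and 28546 had none. Pathway genes were matched by symbol or synonym. CCDA and PAO1 were left out of that list as ambiguous, and SGR did not pass the floor. Members and lists were chosen with earlier results of these data known. The pathway genes named were those called, the one of highest mean in each sub-list and relatives of the members, while HPPD, LOC100788252 and CYP97B2 were named after their values were seen. Replicate numbers were not taken to pair samples, since deviations of same-numbered arrays had r of -0.264 to 0.272. The fit was tested on simulated data. Alternatives covered scaling, pseudocount, filter, variance trend, arrays fitted, replicate block, probe set and each replicate. The number of arrays limits the precision.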

Additional observations from a re-analysis of the deposited data

Results flagged for a closer look

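C0 replicate 4 lay farther from the other C0 arrays than Dixon's 95% limit for 4 samples allows, on the log2 scale, in 5 of 22 probe sets examined, and each time as the highest array. The gap over the range was 0.850, 0.901 and 0.920 for the first, the second and the third HPT1 probe sets, 0.843 for the second BCH3 probe set and 0.834 for CYP97B2, a carotenoid hydroxylase gene of the cytochrome P450 family. Chance gives about 1 such value in 20 groups, and probe sets of 1 gene are not independent. The cause was not tested.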

How the results depend on the processing

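HPT1 in R30 against C30 kept its call in all 17 alternatives run. BCH3 lost it without the variance trend (-3.94, adjusted p = 0.0569) and on the fourth probe set (-1.33), and without any 1 array other than C30 replicate 3 (single arrays left out gave -4.60 to -3.49, and the call held at -4.60). In C30 against C0, HPT1 passed with a pseudocount of 16 (2.52), on its second probe set (2.70) and with the replicate block (3.15, limma adjusted p = 0.00556). It also passed without C0 replicate 4, C15 replicate 1 and R20 replicate 3 (3.15). BCH3 passed on its second (3.63) and the third (3.62) probe set, with the replicate block (3.26, adjusted p = 0.0359) and without the 3 arrays (3.26). Only C0 has a replicate 4, so the block fits that array exactly. The block and the fit without the 3 arrays thus both give the estimate without C0 replicate 4 and are not separate evidence here. Single arrays left out gave 2.29 to 3.15 for HPT1 and 2.47 to 3.58 for BCH3 there. In R20 against C20, HPT1 moved to -4.55 under quantile normalization, -3.70 under median centring and -6.51 on the third probe set, and BCH3 to -1.70 on the fourth. Single arrays left out gave -4.38 to -4.05 for HPT1 and -6.50 to -5.10 for BCH3 in R20, and -4.48 to -2.67 and -3.98 to -1.13 in D15. No member reversed in any alternative.

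Of the 15 other pathway genes, 2 were called in D15, 3 in R20, 3 in R30 and 2 in C30 against C0 without the 3 arrays. Of all 32776 tested probe sets, 3332, 4958, 1944 and 5093 were called there. With the replicate block 3 were called in R20, 1 in R30 and 2 in C30 against C0, where all probe sets gave 7031, 1092 and 3520. With the arrays of the compared groups alone 2 were called in R30 and 0 in C30 against C0, and under median centring 0 in R20. In these, all probe sets gave 513, 72 and 5512. Leaving out single arrays gave 0 to 2 in D15, 0 to 2 in R20, 0 to 1 in R30 and 0 to 2 in C30 against C0. The cause was not tested in any of these. Over all probe sets, leaving out single arrays gave 1 to 1135 calls in D15 (74 with all arrays; 1135 without C15 replicate 1), 1552 to 6355 in R20 (5843), 190 to 1132 in R30 (729) and 351 to 3023 in C30 against C0 (1426). The median of all probe sets in R20 against C20 was -0.27 as deposited, -0.09 after quantile normalization and 0.20 after median centring.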

Other observations

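In C20 and C30 the replicates of several pathway genes lay far apart, as noticed in the data and not tested. HPPD had 1184, 833 and 405 on C20 replicates 1 to 3, and 4086, 1005 and 268 on those of C30, but 283, 2153 and 690 in C15, where replicate 1 was lowest. BCH3 and BCH5 were likewise lowest on replicate 3 in C20 and C30, BCH5 at 67.7 and 41.5. ZEP lay the other way in some groups, with 3951 on C15 replicate 3 against 857 and 2306, and 4214 on C30 replicate 3 against 821 and 2899. It was also high on replicate 3 of treated leaves, with 2670 in D15 against 384 and 437 and 2224 in R30 against 448 and 683. HPT1 was lowest on replicate 3 in C20 (2556) but not in C30 (4639), and was highest on replicate 3 in D15 (256) and R30 (535).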
